A study of Saccharomyces cerevisiae with 11 samples.

Results

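The 6 libraries described here hold ribosome footprints, the mRNA fragments that a translating ribosome shields from nuclease, from 2 strains of budding yeast (Saccharomyces cerevisiae). They are all the footprint libraries among the 11 libraries analysed here, chosen by their sample labels: 3 from the ΔES7S strain and 3 from the WT strain. In both strains the genomic rDNA is depleted and all rRNA comes from a plasmid. In ΔES7S the plasmid rRNA lacks expansion segment ES7S, and in WT it has the wild-type sequence. Cells of both strains were grown in YPD to an optical density of 0.8, snap-frozen and ground. The series text names the parent strain yJD1045 and the sample fields name it yJD1046 for both groups, and neither says how many independent clones stand behind a strain. The labels leave unsaid whether replicates came from separate cultures, and p-values here measure only the spread between these samples.

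Expansion segments are stretches of rRNA that eukaryotic ribosomes carry beyond the core shared with bacteria, and ES7S lies in the 18S rRNA of the small subunit. Footprint counts of a gene follow both the amount of its mRNA and how densely ribosomes sit on it. The genes below are those outside ribosome assembly, cytosolic ribosomal proteins and the stress response, ordered by function.

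The libraries held 5712239 to 14171383 counts in ΔES7S and 8103654 to 20262647 in WT. Levels are CPM, each gene's counts scaled to a common library total, and fold changes come from edgeR's quasi-likelihood test, ΔES7S over WT, with p-values adjusted by Benjamini-Hochberg over all 5442 genes tested. At an adjusted p under 0.05 edgeR called 1463 genes (26.9%), of which 775 were higher (14.2%) and 688 lower (12.6%) in ΔES7S; upper-quartile scaling turned this balance, with 702 higher and 746 lower. The number of calls was 916 when WT replicate 2 was left out, 684 for WT replicate 3 and 740 for ΔES7S replicate 2. Cytosolic ribosomal protein genes took 11.2%, 8.07% and 5.43% of counts in ΔES7S replicates 1 to 3, and 5.42%, 5.38% and 5.52% in WT replicates 1 to 3, and the part of this share in the changes below was not tested. All 7 a-cell mating genes were read in every library, with summed levels of 298 to 326 CPM in ΔES7S and 357 to 405 CPM in WT. The 5 alpha-cell genes summed to 19.2 to 23.3 CPM in ΔES7S and 17.5 to 23.1 CPM in WT.

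The genes that rose were concentrated on 1 chromosome. Of 383 genes tested on chromosome II, 261 were higher in ΔES7S (68.1%), 3 were lower (0.783%) and 119 did not pass. Outside chromosome II, 514 of 5059 genes were higher (10.2%) and 685 were lower (13.5%). Chromosome II thus held 33.7% of all higher calls, and 37 of the 96 genes that rose at least 2-fold. On each of the other 15 nuclear chromosomes, between 7.64% and 12.4% of genes were higher and between 9.43% and 18.4% lower.

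The median log2 fold change of chromosome II genes was 0.60, a 1.51-fold higher footprint level in ΔES7S, and 356 of the 383 genes lay above 0. Their quartiles were 0.36 and 0.78, against -0.25 and 0.20 for the genes of all other chromosomes, so that the whole distribution lay higher and was about as wide. The medians of the other 15 chromosomes ran from -0.08 to 0.00. Both arms of chromosome II were shifted: the 101 genes of the left arm had a median of 0.51 and the 282 genes of the right arm 0.61. In order along the chromosome, the running median of 25 neighbouring genes stayed between 0.38 and 0.77, against -0.33 to 0.26 on the other chromosomes. When any 1 of the 6 libraries was left out, the median of chromosome II stayed between 0.57 and 0.60.

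**Figure D1:**
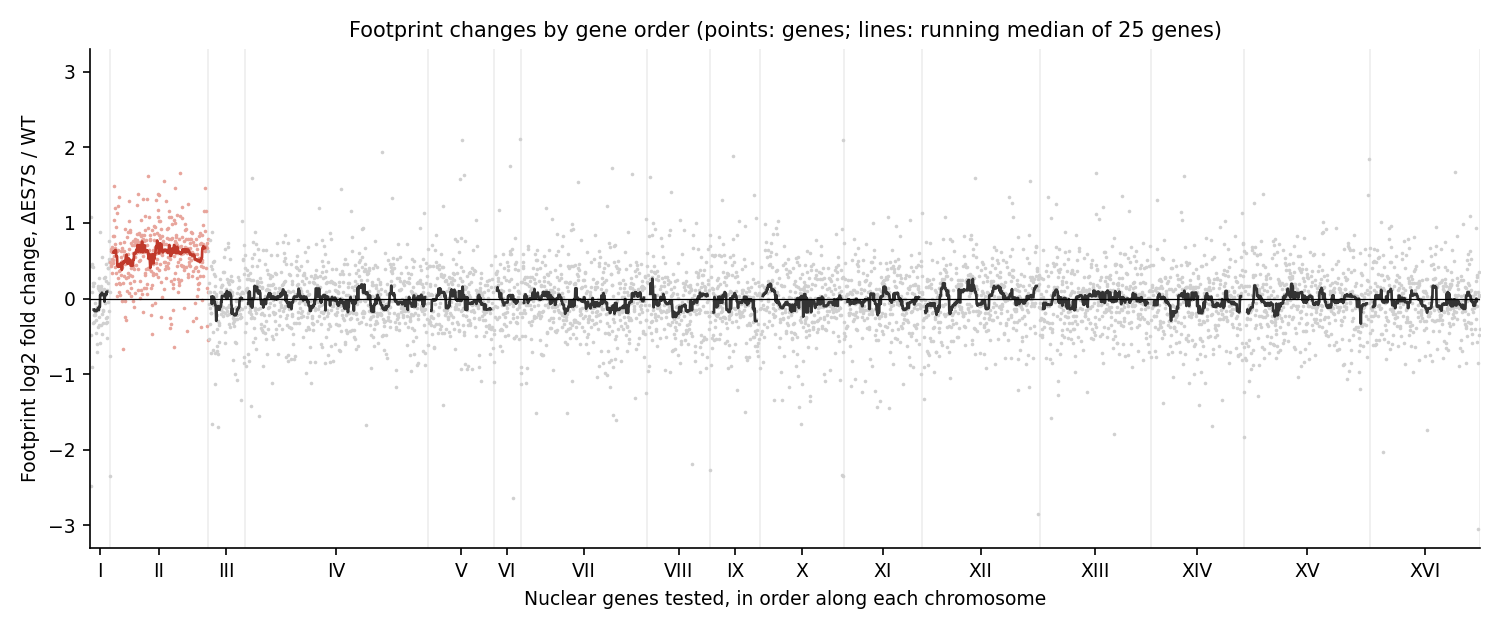
Footprint log2 fold change (ΔES7S over WT, vertical axis) of every nuclear gene tested, placed in order along each of the 16 chromosomes (horizontal axis). Points are genes and lines the running median of 25 genes; the line of chromosome II (red) runs between 0.38 and 0.77 over its whole length, and the lines of the other chromosomes between -0.33 and 0.26.

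The shift was present in each ΔES7S library and alike in all of them. Relative to the mean of the WT footprint libraries and to the median gene of the same library, chromosome II genes had a median log2 level of 0.56, 0.57 and 0.54 in ΔES7S replicates 1 to 3, and of 0.01, -0.01 and -0.01 in WT replicates 1 to 3. The ΔES7S libraries lay well above the WT libraries, with a mean of 0.56 ± 0.013 in ΔES7S and 0.00 ± 0.008 in WT (SD, n = 3 each). The exact two-sided permutation test gave p = 0.1, the smallest that 3 libraries against 3 allow. Chromosome II was picked for its shift in these same libraries, so this p-value adds no support. In the mRNA libraries of the same strains the chromosome II values were 0.51, 0.55 and 0.52 in ΔES7S and 0.00 in both WT libraries. The WT values average near 0 by construction in both assays, since levels are relative to the WT mean. Of the other 15 chromosomes, none had a median outside -0.08 to 0.04 in a ΔES7S footprint library.

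**Figure D2:**
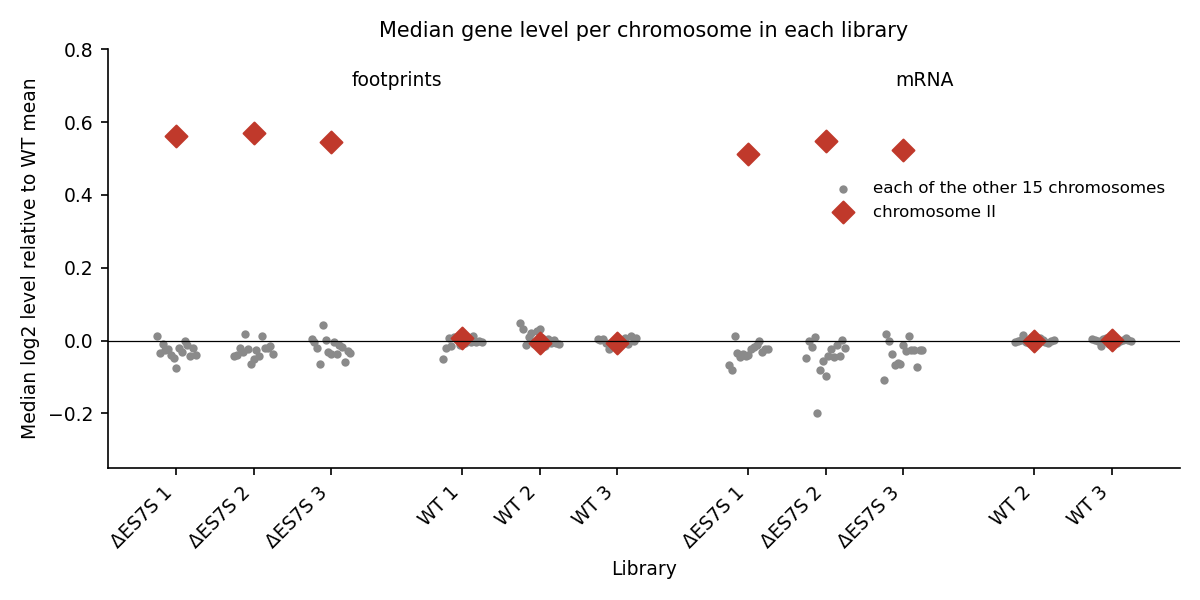
Median log2 level of the genes of each chromosome in each library, relative to the WT mean of the same assay and to the library's median gene (vertical axis), for footprints on the left and mRNA on the right. Red diamonds are chromosome II, at 0.54 to 0.57 in the ΔES7S footprint libraries and near 0 in WT, and grey points are the other 15 chromosomes.

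The shift was present among genes of low and of high expression. Ranked by average level over all genes, chromosome II genes in the lowest, middle and highest of 3 equal classes had medians of 0.58, 0.52 and 0.64, against -0.04, -0.06 and 0.01 for other genes of the same classes. In budding yeast, cells with an extra copy of a chromosome generally express its genes at a higher level. No DNA was measured here, and a difference in chromosome number between the 2 strains cannot be told apart from an effect of the rRNA deletion on the genes of chromosome II. When the chromosome II genes were centred on the median of all other genes, a setting chosen after seeing the data, 24 of them remained above their chromosome's median by the test and 52 lay below it. The centred fit called 487 genes higher and 694 lower over all chromosomes.

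TOD6, a repressor of ribosome biogenesis genes, was 1 of the 3 chromosome II genes lower in ΔES7S, which are named here after their values were seen. It had 52.6, 46.2 and 53.9 CPM in ΔES7S and 69.4, 84.9 and 99.8 CPM in WT, and its log2 fold change was -0.67 ± 0.13 (SE; edgeR adjusted p = 0.00517). The groups did not overlap. The other two were ICS2, at -0.64 ± 0.19, and NRG2, a repressor of glucose-repressed genes, at -0.47 ± 0.11. ICS2 passed in 2 of the 6 fits that each left out 1 library and NRG2 in 4, and TOD6 passed in all 6.

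Of 4849 genes tested outside the excluded functions, 668 were called higher (13.8%) and 516 lower (10.6%). Where the average level over all 6 libraries was a log2 CPM of 4 or more and the groups did not overlap, 578 of these genes rose and 461 fell. Chromosome II held 221 of the 578 rises. Of the 15 largest rises by this rule 12 were chromosome II genes, and of the 15 largest falls 0 were. YPC1, a ceramidase, had 378, 297 and 326 CPM in ΔES7S and 113, 113 and 107 CPM in WT, a log2 fold change of 1.66 ± 0.12 (adjusted p = 0.000235). RFS1, a flavodoxin-like protein, had 618, 609 and 669 CPM in ΔES7S and 242, 205 and 200 CPM in WT (1.62 ± 0.14, adjusted p = 0.000235). The rule requires that the groups do not overlap in these 15 rises and 15 falls, the leading genes, here and below. YPC1 and RFS1 both stayed higher after centring, at 1.04 and 0.998. The others were TEF2 (elongation factor 1A), HAB1, CSH1, the acid phosphatases PHO3 and PHO5, the histone H4 gene HHF1, EDS1, GPI18, YBR090C and MEC1. Their log2 fold changes ran from 1.47 for HAB1 to 1.16 for MEC1, with TEF2 at 1.56. After centring, HAB1 (0.84) and YBR090C (0.55) no longer passed, and the other 10 of these 12 genes did.

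**Figure D3:**
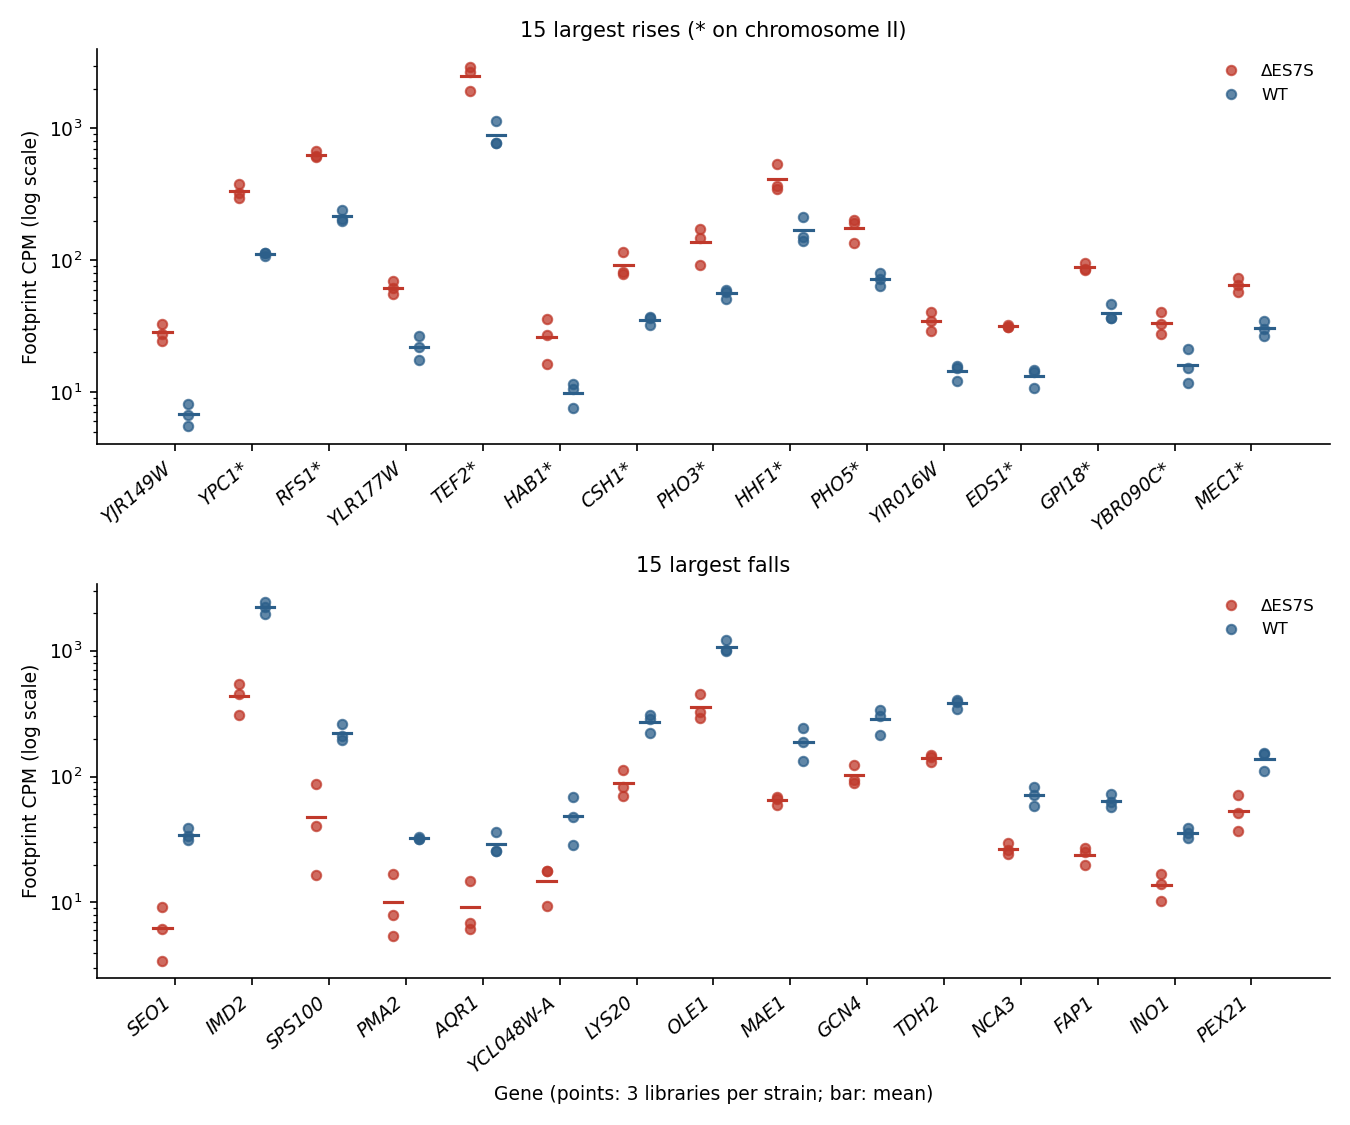
Footprint CPM (log axis) of the 15 genes with the largest rises (top, asterisks on chromosome II) and the 15 with the largest falls (bottom), among genes averaging a log2 CPM of 4 or more outside ribosome assembly, ribosomal protein and stress response genes. Each point is 1 library, red for ΔES7S and blue for WT, and bars are means of 3 libraries; by the rule that chose these genes the groups do not overlap, and 12 of the 15 rises are chromosome II genes.

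Several chromosome II genes have a near relative elsewhere in the genome, and these pairs were looked up after the shift had been seen. TEF2 had 2917, 2673 and 1910 CPM in ΔES7S and 1134, 772 and 779 CPM in WT. The strains were apart in every library. TEF1, its near-identical copy on chromosome XVI, had 1800, 1875 and 1598 CPM in ΔES7S and 1300, 971 and 1287 CPM in WT (0.65 ± 0.17, adjusted p = 0.0173). TEF1 did not pass without replicate 2 of WT, replicate 3 of WT or replicate 2 of ΔES7S, at 0.53, 0.69 and 0.59. HHF1 rose by 1.38 ± 0.21 and its copy HHF2 on chromosome XIV by 0.95 ± 0.22, the second lost without WT replicate 2 (0.87) or WT replicate 3 (0.83). How reads that match both copies were assigned is not given in the sources used here, so the split within these 2 pairs is uncertain. NHP6B, which encodes an HMG-box chromatin protein, rose by 1.08 ± 0.11, whereas NHP6A on chromosome XVI had -0.12 ± 0.11 (adjusted p = 0.459).

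In 3 protein complexes with subunits on several chromosomes, chosen after the shift had been seen, the only genes that rose were on chromosome II. Of all chromosome II genes tested 68.1% rose, against 10.2% of the genes elsewhere. The MCM helicase, which unwinds DNA at replication forks, has 6 genes: MCM2 and MCM7 on chromosome II rose by 0.91 ± 0.13 and 0.65 ± 0.11, and the 4 elsewhere had -0.23 to 0.28, none past the test. MCM2 had 115, 92.7 and 103 CPM in ΔES7S and 64.2, 49.0 and 61.6 CPM in WT, and MCM4 on chromosome XVI had 59.4, 63.1 and 61.5 CPM in ΔES7S and 78.5, 66.1 and 72.4 CPM in WT. The 2 groups were thus apart for MCM2, and MCM4 lay slightly the other way. In the origin recognition complex ORC2, on chromosome II, rose by 0.79 ± 0.13 and the other 5 genes had -0.27 to 0.12, none past the test. Of the 4 genes of DNA polymerase epsilon, DPB3 on chromosome II rose by 0.97 ± 0.14, and the other 3 had -0.36 to 0.10. Of those 3, DPB4 (-0.36) was called lower, in 1 of the 6 fits that left out a library.

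For the remaining functions, members of 71 gene lists were counted with chromosome II set apart. Together the lists hold 2320 genes tested. Of their 176 genes on chromosome II, 125 rose (71.0%) and 0 fell, and of the 2144 elsewhere 181 rose (8.44%) and 239 fell (11.1%). Over all genes outside chromosome II and outside the excluded functions, 9.54% rose and 11.4% fell, and the median log2 fold change of all genes outside chromosome II was -0.03. The members of 35 of the 63 lists with a chromosome II gene that lie on that chromosome all rose, and in 7 of 61 lists with any rise every riser was a chromosome II gene.

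**Figure D4:**
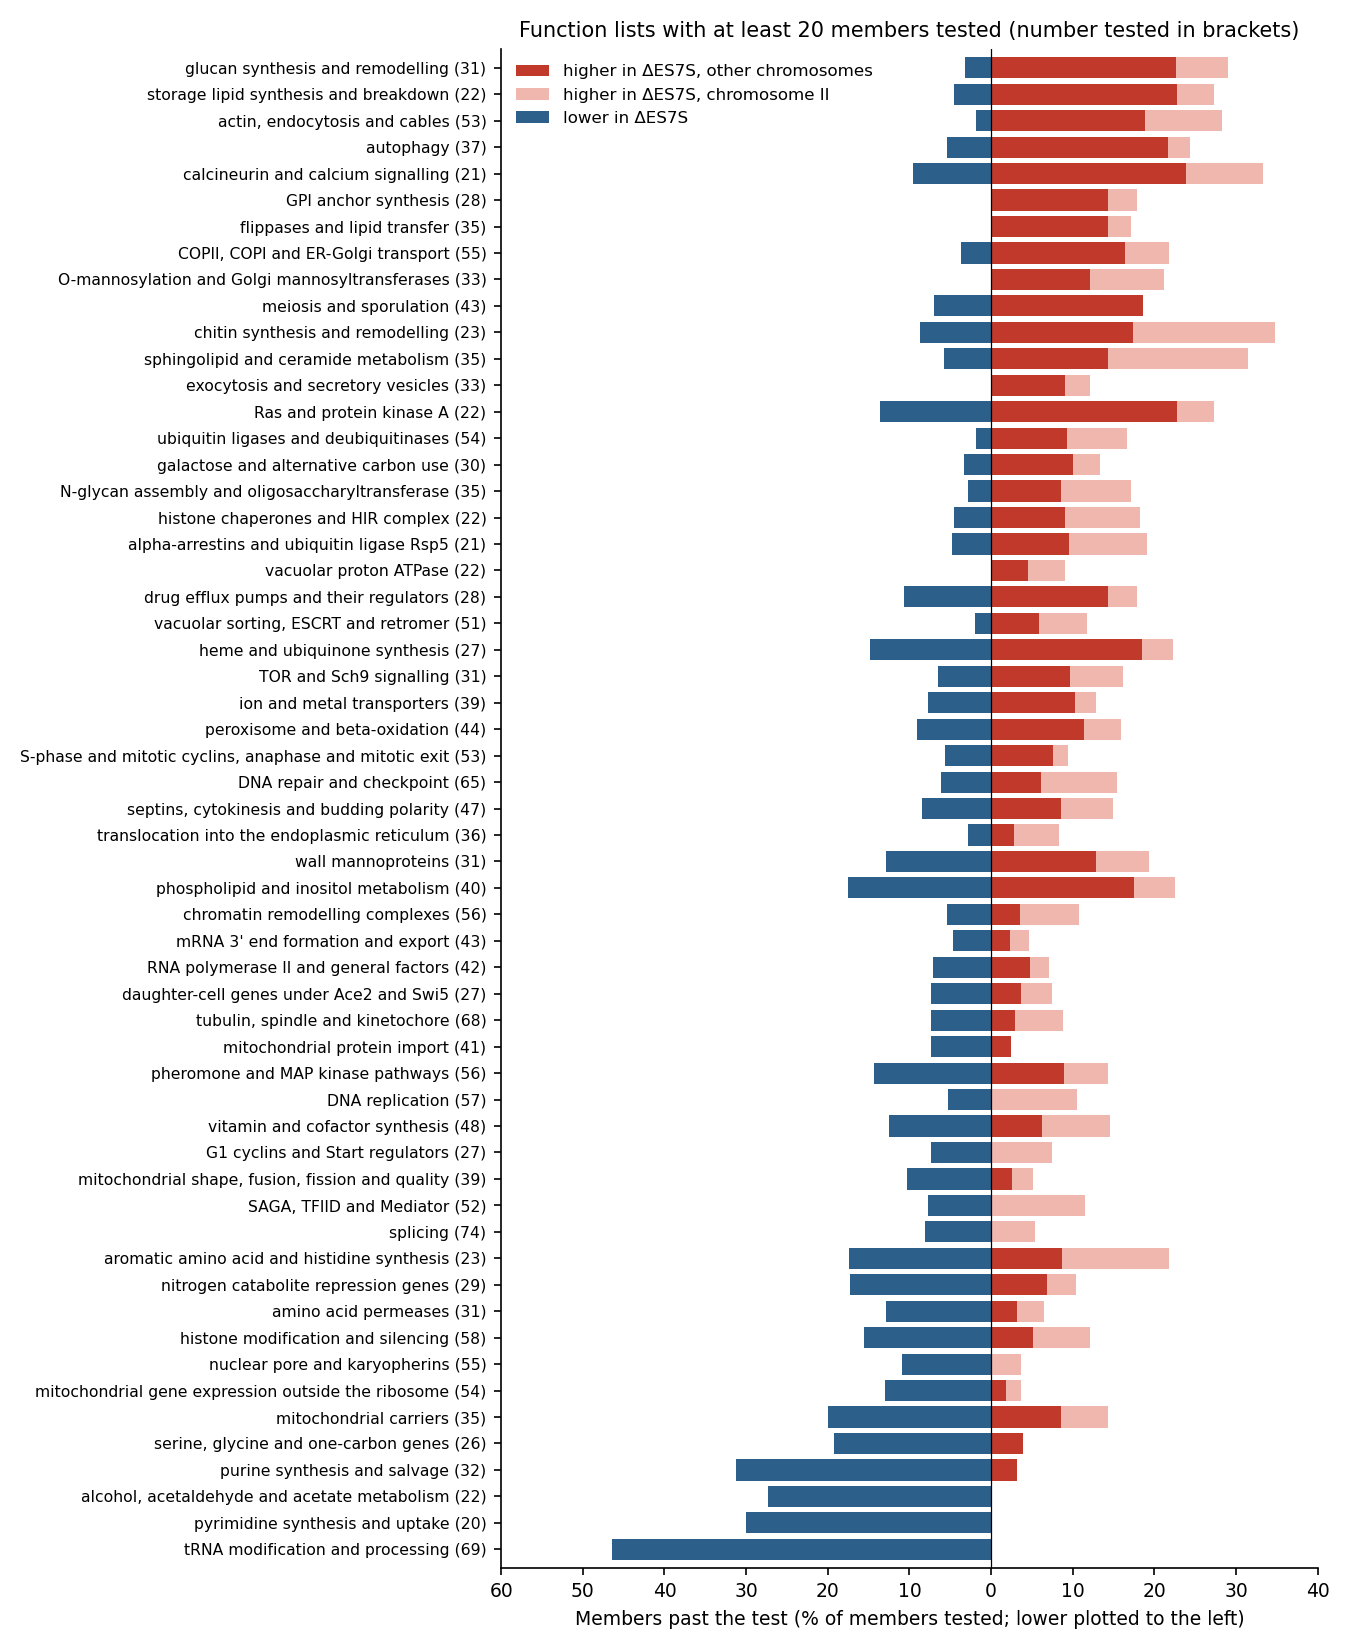
Share of the members tested (horizontal axis, in %) that were higher in ΔES7S (to the right; dark red other chromosomes, light red chromosome II) or lower in ΔES7S (to the left, blue) at an edgeR adjusted p under 0.05, for the gene lists with at least 20 members tested. tRNA modification and processing, at the bottom, has 32 of 69 members lower and 0 higher.

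tRNA modification and processing was the list with the most falls. Of 69 genes tested 32 fell, 0 rose and 37 did not pass, with a median log2 fold change of -0.38; outside chromosome II the 32 were 48.5% of 66 genes. These enzymes alter bases of tRNA, above all in the anticodon loop, and many of their genes are controlled together with ribosome assembly genes in yeast. MTO1, which modifies the wobble uridine of mitochondrial tRNAs, had 18.4, 23.6 and 18.4 CPM in ΔES7S and 47.8, 47.6 and 44.4 CPM in WT (-1.12 ± 0.13, adjusted p = 0.000685). PPM2, which makes wybutosine in phenylalanine tRNA, had 9.46, 12.3 and 12.1 CPM in ΔES7S and 22.3, 21.0 and 31.8 CPM in WT (-1.09 ± 0.18, adjusted p = 0.00245). In both genes every ΔES7S library lay below every WT library. The methyltransferase subunit TRM11 fell by 0.88 ± 0.12 and the uridine methyltransferase TRM2 by 0.87 ± 0.10. All 4 passed in each of the 6 fits that left out a library, and 23 to 33 members fell in those fits.

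**Figure D5:**
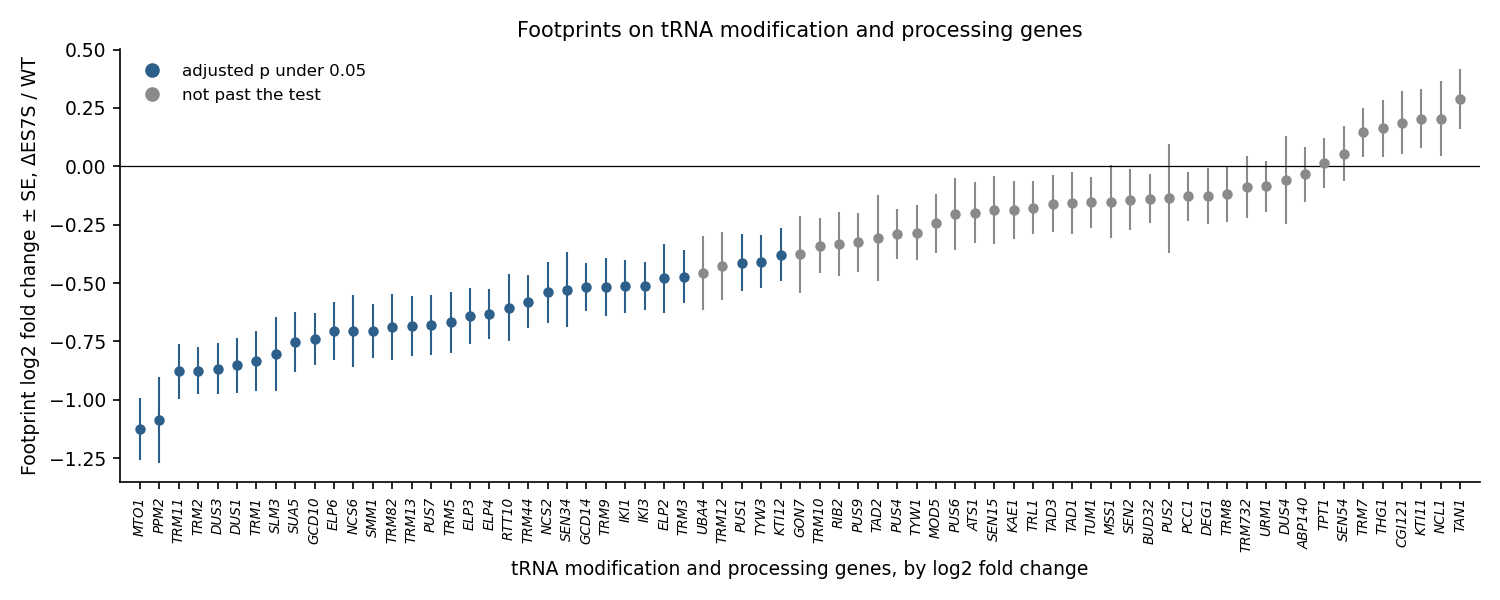
Footprint log2 fold change (ΔES7S over WT, vertical axis, error bars SE) of the 69 tRNA modification and processing genes tested, ordered by fold change. Blue points passed at an edgeR adjusted p under 0.05, 32 in all, and each of them lies below 0.

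Purine genes fell at several steps. Of 32 tested 10 fell and 1 rose, with a median of -0.17. Outside chromosome II 32.3% of purine genes fell, against 11.4% of genes outside it and the excluded functions. IMD2, an IMP dehydrogenase at the entry to GTP synthesis, had 308, 456 and 540 CPM in ΔES7S and 2435, 2226 and 1947 CPM in WT (-2.27 ± 0.22, adjusted p = 0.000356). Every ΔES7S library lay far below every WT library. Its relatives IMD3, looked up for its likeness to IMD2, and IMD4 fell by 0.79 ± 0.14 and 1.10 ± 0.12, and because the 3 genes share sequence, the split of reads among them is uncertain. HPT1, which salvages hypoxanthine and guanine, fell by 0.94 ± 0.14 and the adenine deaminase AAH1 had -1.002 ± 0.22 (adjusted p = 0.0119). Between 7 and 14 members fell when 1 library was left out. Of 20 pyrimidine genes 6 fell and 0 rose (median -0.19), among them the uridine kinase URK1 at -0.85 ± 0.14 and the UMP kinase URA6 at -0.71 ± 0.11; without replicate 3 of WT or replicate 2 of ΔES7S the number was 2. No member of the pyrimidine list rose in any fit that left out a library. With all 6 libraries, 37.5% of the pyrimidine genes outside chromosome II fell.

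Amino acid synthesis fell in some pathways and not detectably in others. In lysine synthesis 6 of 11 genes fell and 0 rose, with a median of -0.41. LYS20, a homocitrate synthase gene for the first step of the pathway, had 70.5, 83.0 and 113 CPM in ΔES7S and 222, 288 and 306 CPM in WT (-1.55 ± 0.18, adjusted p = 0.000765). It is a leading fall, so its groups do not overlap by rule. LYS1, the last enzyme of the pathway, fell by 0.58 ± 0.11. In arginine and ornithine synthesis 7 of 18 genes fell and 0 rose (median -0.30), with ARG3, ornithine carbamoyltransferase, at -1.18 ± 0.20. Of 19 genes for glutamate, aspartate, threonine and proline 8 fell and 0 rose (median -0.39), led by GLN1, glutamine synthetase, at -0.78 ± 0.17. Outside chromosome II 60% of lysine genes, 38.9% of arginine and ornithine genes and 42.1% of these 19 genes fell. Over all genes outside chromosome II and the excluded functions 11.4% fell. Branched-chain synthesis had 0 of 14 genes past the test in either direction (median -0.16), and aromatic amino acid and histidine synthesis had 5 higher and 4 lower of 23, with 3 of the 5 on chromosome II and 2 higher and 4 lower of 20 elsewhere.

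These counts moved with single libraries, as did the calls over all genes. With all libraries 688 genes were lower, and 439, 317 and 325 without WT replicate 2, WT replicate 3 and ΔES7S replicate 2. Without replicate 2 of WT, replicate 3 of WT or replicate 2 of ΔES7S, lysine synthesis had 3, 3 and 4 genes lower, arginine 4, 4 and 3, and the glutamate group 2 in each fit. Aromatic amino acid and histidine synthesis had 1, 2 and 1 genes higher and 1 lower in each of these fits, and 1 higher and 5 lower without WT replicate 1. Branched-chain synthesis had 6 genes lower without ΔES7S replicate 1. Among regulators, BAS1, a transcription factor of purine and histidine genes, had 17.9, 19.0 and 28.9 CPM in ΔES7S and 42.2, 39.1 and 53.8 CPM in WT (-0.9995 ± 0.18, adjusted p = 0.00378). GCN4, the main activator of amino acid synthesis genes, had 93.6, 89.4 and 124 CPM in ΔES7S and 214, 301 and 339 CPM in WT (-1.41 ± 0.18, adjusted p = 0.00103). Both regulators were lower in every ΔES7S library than in any WT library.

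Central carbon and cofactor genes held some of the larger falls. MAE1, the mitochondrial malic enzyme, had 66.8, 59.5 and 68.6 CPM in ΔES7S and 132, 187 and 242 CPM in WT (-1.45 ± 0.19, adjusted p = 0.00125). TDH2, 1 of 3 glyceraldehyde-3-phosphate dehydrogenase genes, had 148, 132 and 144 CPM in ΔES7S and 393, 347 and 405 CPM in WT (-1.36 ± 0.12, adjusted p = 0.000235), while TDH3 had 0.03 ± 0.17 (adjusted p = 0.924). TDH3 was looked up for its likeness to TDH2, and as the genes are near-identical, the split of reads between them is uncertain. In alcohol, acetaldehyde and acetate metabolism 6 of 22 genes fell and 0 rose (median -0.34), among them ALD5, a mitochondrial aldehyde dehydrogenase, at -0.86 ± 0.17; the number was 2 without WT replicate 1, 1 without WT replicate 2, 1 without WT replicate 3 and 2 without ΔES7S replicate 2. Of 48 vitamin and cofactor genes 7 rose, 4 of them on chromosome II, and 6 fell; the numbers were 3 and 5 without WT replicate 1, 4 and 5 without WT replicate 2, 2 and 4 without WT replicate 3, and 3 and 3 without ΔES7S replicate 2. Outside chromosome II 7.14% of the vitamin and cofactor list rose and 14.3% fell. Over all genes outside chromosome II and the excluded functions the shares were 9.54% and 11.4%, so this list lay near them. Its falls were led by the thiamine gene THI4 at -1.54 ± 0.21, the biotin synthase BIO2 at -1.26 ± 0.13 and BNA2, the first enzyme from tryptophan towards NAD, at -1.09 ± 0.18.

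Lipid genes moved in both directions. OLE1, the only fatty acid desaturase of this yeast, had 289, 327 and 452 CPM in ΔES7S and 1003, 986 and 1221 CPM in WT (-1.52 ± 0.18, adjusted p = 0.00072). Its membrane-bound activator MGA2 had 37.9, 34.6 and 41.0 CPM in ΔES7S and 63.2, 67.6 and 70.0 CPM in WT (-0.76 ± 0.11, adjusted p = 0.00118). In both genes the strains were apart in every library. The acyl-CoA synthetases FAA1 and FAA4 went opposite ways, at 0.84 ± 0.17 and -0.91 ± 0.14. INO1, which makes inositol phosphate and is the best known target of the activators Ino2 and Ino4, had 10.3, 14.0 and 16.8 CPM in ΔES7S and 35.9, 39.2 and 32.4 CPM in WT (-1.35 ± 0.17, adjusted p = 0.000901). The phospholipid and inositol list as a whole had 9 members higher and 7 lower of 40 (median 0.08), with 4 higher and 2 lower without WT replicate 3, 3 lower without WT replicate 2 and 5 higher and 3 lower without ΔES7S replicate 2. It includes the glycerophosphodiesterase GDE1 at 0.67 ± 0.10 and the glycerophosphoinositol permease GIT1 at -0.86 ± 0.12.

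Of 35 sphingolipid genes tested 11 rose and 2 fell (median 0.04), and most of the risers lay on chromosome II. All 6 members on chromosome II rose, and 5 of 29 elsewhere did. Besides YPC1, these 6 included CSH1, a subunit that makes mannosylated sphingolipids, at 1.46 ± 0.15, and the ketoreductase IFA38 at 1.04 ± 0.12. YPK2, a protein kinase that acts below TOR complex 2 on sphingolipid synthesis and lies on chromosome XIII, had 242, 229 and 262 CPM in ΔES7S and 116, 120 and 120 CPM in WT (1.12 ± 0.10, adjusted p = 0.000325). The ΔES7S libraries all lay well above the WT libraries. Without replicate 2 of WT, replicate 3 of WT or replicate 2 of ΔES7S, 7 members of this list rose. KIN82, a kinase of phospholipid flippases on chromosome III, rose by 1.03 ± 0.16.

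Lists for the cell surface and the secretory pathway differed in how many members rose outside chromosome II, where 9.54% of genes outside the excluded functions did. The shares were 24.1% for glucan synthesis, 21.1% for chitin, 17.6% for COPII, COPI and Golgi transport, 14.8% for GPI anchors, 13.8% for wall mannoproteins, 13.3% for O-mannosylation and 10.3% for N-glycans. They were 9.68% for exocytosis, 6.25% for vacuolar sorting and 3.03% for translocation into the endoplasmic reticulum. In glucan synthesis and remodelling 9 of 31 genes rose and 1 fell (median 0.11), and 7 of 29 outside chromosome II rose. The fall was NCA3, of the SUN family of wall proteins, with 26.0, 24.1 and 29.8 CPM in ΔES7S and 58.2, 71.7 and 82.2 CPM in WT (-1.35 ± 0.14, adjusted p = 0.000365). In chitin synthesis 8 of 23 genes rose and 2 fell, and 4 of the 8 were chromosome II genes, among them the synthases CHS2 at 0.91 ± 0.11 and CHS3 at 0.83 ± 0.12. CHS7, which brings Chs3 out of the endoplasmic reticulum and is encoded on chromosome VIII, rose by 0.67 ± 0.10. COPII, COPI and Golgi transport had 12 of 55 genes higher and 2 lower (median 0.17), with 9 of 51 higher outside chromosome II, such as ERP3, of the p24 family of cargo proteins, at 0.78 ± 0.17. Protein O-mannosylation and Golgi mannosyltransferases had 7 of 33 higher and 0 lower, 3 of the 7 on chromosome II, and GPI anchor synthesis 5 of 28 higher and 0 lower, led by GPI18, an anchor mannosyltransferase on chromosome II, at 1.23 ± 0.12. Single libraries weighed on these counts: without replicate 2 of WT, replicate 3 of WT or replicate 2 of ΔES7S the glucan list had 4, 1 and 4 genes higher, the transport list 7, 5 and 8, and the mannosylation list 4, 2 and 5. Without WT replicate 1 the mannosylation list had 3, and without WT replicate 2 or WT replicate 3 the GPI list had 3. Wall mannoproteins had 6 of 31 genes higher and 4 lower, and outside chromosome II 4 of 29 went each way. Leaving out 1 library gave 1 to 9 wall mannoproteins higher and 0 to 4 lower.

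Of 53 actin and endocytosis genes tested 15 rose, 1 fell and 37 did not pass, with a median of 0.19, and outside chromosome II 10 of 48 rose (20.8%, against 9.54% of genes outside chromosome II and the excluded functions). MYO3, a myosin of endocytic actin patches, had 113, 113 and 147 CPM in ΔES7S and 88.0, 67.3 and 83.4 CPM in WT (0.72 ± 0.13, adjusted p = 0.00404). The groups did not overlap. On chromosome II the patch scaffold SLA1 rose by 0.71 ± 0.12 and the kinase AKL1 by 0.84 ± 0.13. The number of members higher was 10, 7 and 6 without WT replicate 2, WT replicate 3 and ΔES7S replicate 2. Autophagy genes had 9 of 37 higher and 2 lower (median 0.07), among them ATG29 at 0.56 ± 0.10 and, on chromosome II, ATG14 at 0.92 ± 0.17. Outside chromosome II 22.9% of autophagy genes rose, against the same 9.54%. With chromosome II genes centred, 8 actin and endocytosis genes and 6 autophagy genes were higher. Among autophagy genes 3 were higher without replicate 3 of WT or replicate 2 of ΔES7S, and 5 without replicate 1 of WT, replicate 2 of WT or replicate 3 of ΔES7S.

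In 4 lists of nuclear machinery, DNA replication, SAGA with TFIID and Mediator, splicing, and nuclear pores, every gene that rose with all 6 libraries lay on chromosome II. DNA replication had 6 of 57 genes higher and 3 lower; all 6 were among its 7 chromosome II genes, and 0 of the 50 others rose. SAGA, TFIID and Mediator had 6 of 52 higher and 4 lower, splicing 4 of 74 higher and 6 lower, and nuclear pores and karyopherins 2 of 55 higher and 6 lower. Outside chromosome II 6% of DNA replication genes fell, 8.7% of SAGA, TFIID and Mediator, 9.0% of splicing and 11.3% of nuclear pores. None of these shares exceeded the 11.4% of all genes outside chromosome II and the excluded functions that fell. Splicing had 8 genes higher without ΔES7S replicate 3, more than its 7 members on chromosome II, and 2 without WT replicate 2 or ΔES7S replicate 2. Other nuclear lists had risers elsewhere too: of RNA polymerase II and general factors 3 of 42 rose, 2 of them outside chromosome II, and of histone modification and silencing genes 7 of 58 rose, 3 of them outside. Outside chromosome II 4.88% of the first and 5.56% of the second list rose, against 9.54% of genes outside it and the excluded functions. The splicing helicase PRP28 fell by 0.63 ± 0.13, the U6 snRNP protein PRP24 by 0.69 ± 0.13 and the nucleoporin NUP1 by 0.67 ± 0.10. Checkpoint and cell cycle kinases on chromosome II were among the rises: MEC1, the yeast ATR kinase, had 64.7, 57.4 and 73.7 CPM in ΔES7S and 26.5, 30.1 and 34.8 CPM in WT (1.16 ± 0.13, adjusted p = 0.000509), and CDC28, the main cyclin-dependent kinase, rose by 0.999 ± 0.14. Core histones and variants had 6 of 11 genes higher and 0 lower, 3 of them on chromosome II, and the variant HTZ1 on chromosome XV rose by 0.72 ± 0.14. Without replicate 2 of WT, replicate 3 of WT or replicate 2 of ΔES7S the histones had 3, 2 and 4 members higher. In the same fits nuclear pores had 3, 1 and 2 genes lower, splicing 5, 3 and 3, SAGA, TFIID and Mediator 2, 1 and 2, and DNA replication 1, 0 and 0. DNA replication had 0 lower without WT replicate 1 and 6 without ΔES7S replicate 1.

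Signalling genes moved both ways. SST2, which switches off the G protein of the mating pathway, had 2.12, 1.34 and 2.80 CPM in ΔES7S and 15.5, 13.3 and 16.1 CPM in WT (-2.85 ± 0.24, adjusted p = 0.000235), and its strains did not overlap. BAR1, the protease that a-cells use to degrade alpha-factor, fell by 0.77 ± 0.15. The pheromone and MAP kinase list had 8 higher and 8 lower of 56 (median 0.03), with 5 higher without WT replicate 1 or WT replicate 2, 3 higher without WT replicate 3 and 4 lower without ΔES7S replicate 2. Of 22 Ras and protein kinase A genes 6 rose and 3 fell (median 0.09), with 1 lower without replicate 1 of WT, replicate 3 of WT or replicate 2 of ΔES7S. Adenylate cyclase CYR1 rose by 0.62 ± 0.12, and SOK2, a transcription factor of this pathway, fell by 0.77 ± 0.13. In calcineurin and calcium signalling 7 of 21 genes rose and 2 fell (median 0.22), with 4 higher without WT replicate 2 and 3 without replicate 3 of WT or replicate 2 of ΔES7S. Outside chromosome II, 9.43% of the pheromone and MAP kinase list rose and 15.1% fell. The shares there were 23.8% and 14.3% for Ras and protein kinase A, and 26.3% and 10.5% for calcineurin and calcium. Over all genes outside chromosome II and the excluded functions, 9.54% rose and 11.4% fell.

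Of 35 mitochondrial carriers 7 fell and 5 rose, 2 of the 5 on chromosome II (median -0.06). Outside chromosome II 23.3% of carriers fell, against 11.4% of genes outside it and the excluded functions, and 4 fell without replicate 2 of WT, replicate 3 of WT or replicate 2 of ΔES7S. YMC1, a carrier of the inner membrane, fell by 0.68 ± 0.13, and ODC1, the oxodicarboxylate carrier, by 0.59 ± 0.11. Of 54 genes for mitochondrial gene expression outside the ribosome 7 fell and 2 rose (median -0.12). Outside chromosome II 13.2% of this list fell, near the 11.4% of comparable genes, and MTO1, described above, is also a member. The gene expression list had 3 genes lower without WT replicate 1 or WT replicate 2, 2 without WT replicate 3, 4 without ΔES7S replicate 1, 1 without ΔES7S replicate 2 and 10 without ΔES7S replicate 3.

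Membrane transporters gave some of the largest single changes, several of them at low levels. SEO1, a putative permease of the allantoate family, had 3.46, 6.14 and 9.28 CPM in ΔES7S and 38.8, 33.7 and 31.4 CPM in WT (-2.48 ± 0.27, adjusted p = 0.000791). AQR1, an efflux pump of acids and amino acids, had 6.14, 6.92 and 14.7 CPM in ΔES7S and 25.7, 25.4 and 36.5 CPM in WT (-1.69 ± 0.30, adjusted p = 0.00515). Both are leading falls, for which the rule requires that the groups do not overlap. PMA2, the minor isoform of the plasma membrane proton pump, fell by 1.74 ± 0.33, and by 1.61 without ΔES7S replicate 2, where its adjusted p was 0.0542. How reads shared between isoforms of the pump were assigned is not given in the sources used here, so this fall is uncertain. The zinc transporter ZRT1 fell by 1.13 ± 0.19. Higher levels were found for DAL4, the allantoin permease, with 45.9, 47.0 and 47.1 CPM in ΔES7S and 19.7, 26.0 and 23.8 CPM in WT (1.07 ± 0.12, adjusted p = 0.000638), and for the drug pump QDR2 at 1.31 ± 0.30.

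Among the leading changes outside chromosome II were open reading frames of unknown or little known function. YJR149W, on chromosome X, ranked first among the 15 leading rises chosen by the rule above. It had 24.5, 27.8 and 32.7 CPM in ΔES7S and 5.55, 6.71 and 8.12 CPM in WT (2.10 ± 0.17, adjusted p = 0.000235). YLR177W had 61.7, 69.1 and 55.3 CPM in ΔES7S and 26.5, 17.4 and 21.9 CPM in WT (1.60 ± 0.16, adjusted p = 0.000365), and YIR016W had 34.8, 40.6 and 29.1 CPM in ΔES7S and 15.3, 15.7 and 12.2 CPM in WT (1.36 ± 0.17, adjusted p = 0.000765). All 3 are leading rises, whose groups do not overlap by rule, and their calls held when any 1 library was left out. The leading falls also included FAP1, which binds the rapamycin target Fpr1, at -1.35 ± 0.14 and PEX21, a receptor subunit of peroxisomal import, at -1.32 ± 0.23. SPS100, a spore wall gene, had 16.6, 40.5 and 86.7 CPM in ΔES7S and 208, 263 and 196 CPM in WT (-2.19 ± 0.57, adjusted p = 0.0395), and YCL048W-A fell by 1.66 ± 0.38. These last 2 calls each held in 2 of the 6 fits that left out a library: SPS100 passed only without ΔES7S replicate 1 or replicate 3, and YCL048W-A only without WT replicate 1 or replicate 2.

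The mRNA values of the 30 leading genes are compared with their footprints here, with no test. Of the 15 falls, the mRNA was lower in every ΔES7S library than in either WT library for 8, overlapped for 6 and was higher for 1, GCN4. Of the 15 rises, the mRNA was higher for 8, all on chromosome II, overlapped for 5 and was lower for 2. TDH2 mRNA had 116, 112 and 183 CPM in ΔES7S and 511 and 317 CPM in WT, and LYS20 mRNA had 83.1, 69.8 and 81.2 CPM in ΔES7S and 156 and 126 CPM in WT, lower in both assays. IMD2 mRNA had 52.4, 77.1 and 47.3 CPM in ΔES7S and 47.4 and 69.2 CPM in WT replicates 2 and 3, and OLE1 mRNA had 369, 441 and 446 CPM in ΔES7S and 459 and 414 CPM in WT. Both ranges overlapped. YJR149W mRNA had 26.9, 14.8 and 19.9 CPM in ΔES7S and 38.5 and 35.8 CPM in WT, lower in ΔES7S while its footprints were higher. For YIR016W the mRNA values were 36.2, 17.1 and 31.9 CPM in ΔES7S and 57.4 and 55.4 CPM in WT, the same pattern. YPC1, on chromosome II, had 144, 141 and 183 CPM of mRNA in ΔES7S and 96.3 and 95.6 CPM in WT, higher in both assays.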

How the data were processed

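Footprint libraries came from 80S ribosomes separated on a density gradient after RNase I digestion, with short fragments selected by size, per the labels' protocols. The authors deposited whole-number counts per gene for each library. FastQC 0.11.7 and Bowtie 1.2.3 are named in the submitters' processing notes; the genome build, counting rule and strand setting were not given in the sources used here, so no coordinates are printed. Of 5756 genes listed, 5752 matched a symbol in the RefSeq table, and the chromosome of a gene was read from its systematic name.

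The counts were tested with edgeR 4.0.16 (R 4.3.3, limma 3.58.1) on the 6 footprint libraries: filterByExpr, TMM scaling, robust quasi-likelihood fit with group as the only term, Benjamini-Hochberg adjustment over 5442 genes and a threshold of 0.05. The script was tested on simulated data. TMM factors ran from 0.9621 to 1.052. CPM are counts over the library total without TMM factors. Library medians per chromosome used log2(CPM + 0.5). DESeq2 1.42.0, limma-voom, other scalings and filters, a replicate block and leaving out each library were tried as alternatives. The SE of a log2 fold change was derived from the test, as its absolute value over the square root of the quasi-likelihood F statistic. Intervals and errors cover the spread between libraries and counting error only.

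Named genes are the 15 largest rises and falls averaging a log2 CPM of 4 or more and with groups that do not overlap, outside the excluded functions, and up to 4 members per direction of each list. Paralog pairs, complexes and the chromosome II genes that fell were chosen after their values were seen. The gene lists and the comparison were chosen with earlier results of these data known. Of the 71 lists tested, those not described in the text are shown by their shares in the plot of function lists where they hold at least 20 members. Some list members are not reported here.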

Additional observations from a re-analysis of the deposited data

How the results depend on the processing

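The 1463 genes called (775 higher, 688 lower) became 1448 (702 higher, 746 lower) with upper-quartile scaling, which turns the balance of directions, 1470 (860 higher, 610 lower) with TMM computed without chromosome II genes, 1452 without the filter on low counts, 1389 with at least 10 CPM in 3 libraries, 1563 with DESeq2 and 1442 with limma-voom. Leaving out 1 library gave 684 to 1749 calls, with 367 to 917 genes higher and 317 to 832 lower; the lowest numbers came without WT replicate 3, and 916 and 740 genes were called without WT replicate 2 and ΔES7S replicate 2. With chromosome II genes centred, 487 genes were higher, and with those genes left out 514, settings chosen after seeing the data that remove the chromosome's shift by construction. Of 95 genes named here, 92 passed the test, and 84 of the 95 kept the same call in all fits that left out a library. Of 27 named genes on chromosome II, 15 kept their call after centring. No named gene past the test changed sign in any of these settings.

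The deviations of same-numbered ΔES7S and WT libraries correlated weakly, at 0.019, 0.0882 and 0.0931 across genes. Those of differently numbered libraries correlated at -0.187 to 0.0816. These values are too few to settle whether replicate numbers pair the libraries. With a replicate block edgeR called 1341 genes, 683 of them higher.

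Depth is lowest in ΔES7S replicate 3. Genes with a few CPM rest on few counts, and reads shared by near-identical copies cannot be assigned from these tables.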

Other observations

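Some meiosis genes were read more in ΔES7S, although the cells grew in rich medium. Of 43 meiosis and sporulation genes tested, none on chromosome II, 8 were higher (18.6%) and 3 lower (6.98%) by edgeR's test (median log2 fold change 0.18). Over all genes outside chromosome II and the excluded functions, 9.54% were higher and 11.4% lower. The meiosis list had 5, 3 and 4 genes higher without WT replicate 1, WT replicate 3 and ΔES7S replicate 2. Without any 1 of the WT libraries or ΔES7S replicate 2, 0 were lower. HOP1, a protein of the meiotic chromosome axis, had 10.4, 17.7 and 14.0 CPM in ΔES7S and 5.18, 3.11 and 4.16 CPM in WT (1.88 ± 0.26, adjusted p = 0.00108). RIM4, an RNA-binding protein that regulates meiotic translation, had 298, 346 and 360 CPM in ΔES7S and 207, 190 and 190 CPM in WT (0.85 ± 0.12, adjusted p = 0.00126). In both genes the groups did not overlap, and both passed when any 1 library was left out. The summed level of the 49 genes listed was 764 to 917 CPM in ΔES7S and 899 to 990 CPM in WT, so that the sum was not higher in ΔES7S.

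The 7 mitochondrially encoded genes listed had summed footprint levels of 21.5, 108 and 25.03 CPM in ΔES7S replicates 1 to 3 and of 33.4, 39.1 and 35.8 CPM in WT. ΔES7S replicate 2 stood apart from the other ΔES7S libraries.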
